A study of Mus musculus with 36 samples.

Results

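BPTF KD 66cl4 tumors grown in BALB/c mice were compared with BPTF KD 66cl4 tumors grown in NSG mice. The tumors were chosen by their titles, cell line and host strain, and made up 12 of the 36 tumors of the series, 6 from each host. 66cl4 is a mouse mammary carcinoma cell line that is syngeneic with BALB/c mice. The cells of both groups carried a retroviral short hairpin RNA against *Bptf*, from a pair of hairpins. Which hairpin each tumor carried is not in the labels, so the 6 tumors of a host were counted as independent tumors and not as independent knockdown lines. The cells were placed in a mammary fat pad, and the tumors were removed after 28 days and frozen. The study's methods give the hosts as females of 6 to 8 weeks. BALB/c mice have a complete immune system. NSG mice, spelled NOD/SCID/Ifrg2r -/- in the labels, are on a NOD background, carry the scid mutation of *Prkdc* and lack the common gamma chain *Il2rg*, and have no mature T, B or NK cells, while they keep macrophages and neutrophils. The hosts therefore differ in their whole genetic background as well as in their lymphocytes. The other tumors used here for comparison were control 66cl4 tumors with a control hairpin (3 BALB/c and 3 NSG, day 28) and BPTF KD tumors of the related line 67NR (6 BALB/c and 6 NSG, day 21).

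BPTF is the largest subunit of NURF, a complex that slides nucleosomes and helps transcription factors to reach DNA. A tumor transplanted into an immune-competent mouse is entered by NK cells and T cells, which kill through granzymes and perforin and secrete interferon gamma. Interferon gamma binds its receptor on tumor cells, macrophages and vessels, and acts on a large set of genes. These include the chemokines CXCL9, CXCL10 and CXCL11, which draw in more T and NK cells through CXCR3, GTPases that defend against intracellular pathogens, and the machinery of MHC class I and class II presentation. The comparison of hosts asks which parts of the expression profile of a knockdown tumor go with a host that has lymphocytes.

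Total RNA of each tumor was hybridized to an Affymetrix mouse array, and all values are deposited log2 RMA signals, so that a difference of 1 is a 2-fold change. Where a gene had several probe sets, the one with the highest mean signal over all 36 tumors stood for it, which gave 12394 genes. Array medians of the 12 tumors lay between 7.05 and 7.14, and arrays correlated at 0.981 to 0.996 within a host and at 0.972 to 0.987 between hosts. Differences are BALB/c minus NSG, tested with limma over the 12 tumors, with p-values adjusted over all genes. A gene was called at an adjusted p under 0.05.

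*Bptf* was read in every tumor first. Its brightest probe set was at 8.68 to 9.12 in BPTF KD tumors of BALB/c mice and at 8.56 to 9.15 in those of NSG mice, against 9.50 to 10.61 in control tumors of BALB/c mice and 9.14 to 9.18 in control tumors of NSG mice. All BPTF KD tumors of BALB/c mice were thus below all of their controls, while in NSG mice 1 of the 6 overlapped with controls that were themselves close to the BPTF KD range. A second probe set gave 7.33 in BPTF KD and 9.17 in control tumors of BALB/c mice, and 7.21 in BPTF KD and 7.59 in control tumors of NSG mice, as means. Between the hosts, the BPTF KD tumors differed by -0.01 to 0.31 over the 4 probe sets (exact permutation p from 0.0866 to 0.87, two-sided, 6 against 6). On a further probe set the BPTF KD tumors of NSG mice averaged 6.68 and their controls 6.38. The gap between BPTF KD and control tumors on the array was therefore smaller in NSG than in BALB/c mice, and the tumors are called BPTF KD by their labels.

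Measures other than gene expression differed between hosts as well. The poly-A spike-in controls, bacterial RNAs added before labelling, averaged 8.71 in BALB/c and 9.88 in NSG arrays with no overlap (difference -1.17, exact permutation p = 0.00216, the smallest that 924 splits of 12 tumors can give; adjusted p = 0.00432 over 2 sets of added controls). Controls showed the same gap, at 8.37 in BALB/c and 10.09 in NSG arrays. The 3′ minus 5′ difference of *Gapdh*, a measure of RNA integrity, was 0.205 in BALB/c and -0.025 in NSG arrays (exact permutation p = 0.00216, adjusted p = 0.00648 over 3 measures). The actin measure, at 1.38 in BALB/c and 1.26 in NSG arrays, gave an exact permutation p of 0.264. The mean of the *Gapdh* and actin measures served as the RNA integrity covariate in the fits below. It was 0.79 in BALB/c and 0.615 in NSG arrays (exact permutation p = 0.013, adjusted p = 0.0195 over 3 measures). Host and array handling cannot be told apart, since the labels give no batch that holds both hosts.

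Contractile genes of skeletal muscle, the tissue next to the fat pad, were much higher in BALB/c tumors. Of 17 muscle genes measured, 15 were called higher and 0 lower, with a median difference of 3.66, while the median over all genes was -0.01. The mean level of the list was 6.69 to 10.59 in BALB/c tumors (median 9.30) and 5.52 to 7.11 in NSG tumors (median 5.70). BALB/c replicate 2 held the lowest BALB/c level and NSG replicate 4 the highest NSG level, and these ranges overlapped. *Myh4*, a fast myosin heavy chain, was at 4.93, 9.09 and 10.80 in BALB/c tumors (lowest, median and highest) and at 3.68, 3.92 and 4.24 in NSG tumors (4.86 ± 0.74 SE, adjusted p = 7.39e-04). Creatine kinase *Ckm* differed by 4.34 and skeletal actin *Acta1* by 4.57, and *Acta1* overlapped in 1 BALB/c tumor. Control tumors showed a like median for the list, 3.80. The part of muscle tissue in the other host differences was examined only by adding the muscle level to the fit, an alternative chosen after seeing the data. It left 122 genes called higher and 15 lower, and its counts are given with each group of genes. The muscle level and the host go together in these tumors, and their parts in the other differences cannot be told apart beyond that fit. A call lost in that fit does not by itself mean a smaller difference. The median of the T cell list was 0.84 without and 1.17 with the muscle level. That of the endothelial list was 0.34 without and 0.26 with it.

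**Figure D1:**
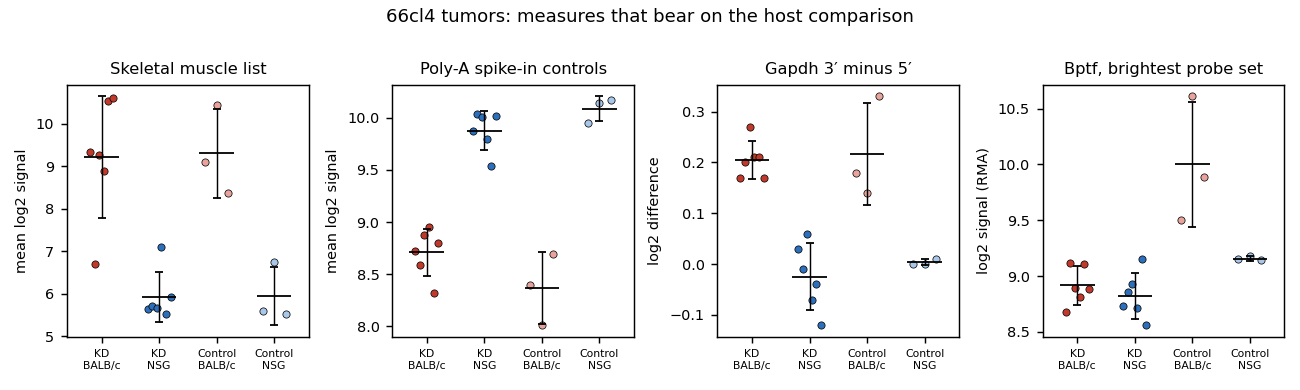
Mean log2 signal of the skeletal muscle list, mean log2 signal of the poly-A spike-in controls, the 3′ minus 5′ log2 difference of Gapdh and the log2 signal of the brightest Bptf probe set, in BPTF KD and control 66cl4 tumors. Points are tumors, lines are means and bars are 1 SD; the spike-in and Gapdh values of BALB/c and NSG tumors do not overlap, and muscle levels vary most among BALB/c tumors, from 6.69 to 10.59 in BPTF KD.

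Over all genes, 791 were higher in BALB/c than in NSG tumors and 579 lower (6.38% and 4.67% of the 12394 genes tested). Of these, 210 were higher by at least 2-fold and 49 lower (1.69% and 0.395%), so that 81.1% of the large differences were toward BALB/c. With each array's median subtracted, the counts were 656 higher and 743 lower, and the share of calls toward BALB/c was 46.9% in place of 57.7%. The split of small differences thus depended on the scaling, while the 2-fold counts were 198 higher and 58 lower under it. With RNA integrity as a covariate, the 2-fold counts were 250 higher and 123 lower, so that the lower count also depended on the fit. In 398 genes every BALB/c tumor lay above every NSG tumor and in 236 below (3.21% and 1.9%). In a bulk tumor, more cells of a type and more RNA per cell cannot be told apart.

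The chemokine *Cxcl9* had the largest difference of any gene whose tumors did not overlap. It was at 12.40, 12.53 and 13.56 in BALB/c tumors (lowest, median and highest) and at 6.13, 6.98 and 7.46 in NSG tumors, a 59.9-fold difference (5.90 ± 0.24 SE, adjusted p = 2.67e-09). BALB/c replicates 2 and 4 were highest, at 13.36 and 13.56, and the other 4 BALB/c tumors lay between 12.40 and 12.56. *Cxcl11* followed with 9.14, 10.11 and 11.31 in BALB/c and 5.57, 6.44 and 7.27 in NSG tumors (3.79 ± 0.37 SE, adjusted p = 1.53e-05). *Cxcl10* differed by 1.42, so that the 3 CXCR3 ligands were all higher with no overlap between hosts.

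Of 28 measured genes of the interferon gamma response, 21 were higher in BALB/c tumors and 0 lower, with a median difference of 1.42, and 19 of them did not overlap. All 10 measured GTPases of the guanylate-binding and immunity-related families were higher by at least 2-fold without overlap, with a median of 1.77. *Iigp1* led them, at 11.90, 12.17 and 13.19 in BALB/c and 8.31, 8.66 and 8.95 in NSG tumors (3.69 ± 0.20 SE, adjusted p = 4.14e-08). *Gbp2b* differed by 2.36, *Igtp* by 2.10 and *Irgm2* by 1.77. Among effectors, the ubiquitin-like *Ubd* was at 6.27, 7.77 and 8.97 in BALB/c and 4.56, 5.22 and 5.72 in NSG tumors (2.67 ± 0.38 SE, adjusted p = 4.68e-04). *AW112010*, a transcript induced in activated lymphocytes and macrophages, differed by 2.63, and the checkpoint ligand *Cd274* by 1.23. Among 7 measured genes of the pathway's own signalling, the transcription factors *Irf1* and *Irf8* were called, by 1.06 and 0.86. The receptor chains *Ifngr1* and *Ifngr2* differed by 0.15 and 0.10, the kinases *Jak1* and *Jak2* by 0.19 and 0.26, and the inhibitor *Socs1* by 0.02, none of them past the threshold. In the fit with the muscle level, 15 of the 28 genes were called higher.

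*Ifng* itself was dim. It was at 4.47, 5.41 and 6.52 in BALB/c tumors and 3.57, 3.72 and 3.89 in NSG tumors (1.60 ± 0.26 SE, adjusted p = 1.24e-03). Every BALB/c tumor was above every NSG tumor, and 5 of the 6 lay below 5.57, the level under which the dimmest 25% of genes lie. In control tumors the host difference of *Ifng* was 0.03, and the test of KD against control differences gave an adjusted p of 0.266. Its call was lost with the muscle level in the fit (1.84, adjusted p = 0.154).

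Promoters of some of these genes are shown because interferon gamma acts on 2 kinds of element, the GAS element and the ISRE, and MHC class II genes carry a Y box near their start. Motifs were searched on both strands in the 250 bases before the start of each gene in RefSeq (GRCm38.p6, from C57BL/6J and thus from neither host strain), as TTCNNNGAA for GAS, the letters GAAA, any 2 bases and GAAA for ISRE and CTGATTGG for the Y box. They were found in 7.02%, 2.98% and 3.83% of 32851 promoters. Of the 10 GTPases, 8 had a promoter in the table, of which 7 held an ISRE, 3 a GAS and 0 a Y box. Over the whole interferon gamma list, 22 of 28 genes had a promoter, of which 9 held an ISRE, 6 a GAS and 3 a Y box, so most of the ISRE matches were in the GTPases. Of the 9 measured MHC class II genes, 5 had a promoter, of which 3 held a Y box, 1 a GAS and 0 an ISRE. The Y box was added after the first search. A match describes letters only and shows neither binding nor use in these tumors. The 150 bases before the start are printed 5′ to 3′ on the gene's strand, with each match in capitals: the Y box in *Cxcl9*, *H2-Eb1* and *H2-Aa*, the ISRE in *Gbp2b*, and GAS followed by ISRE in *Igtp* and *Irgm2*. *Cxcl9* (chr5:92328080-92328229, minus strand) and *Gbp2b* (chr3:142594697-142594846, plus strand) carry their match on the opposite strand. *H2-Eb1* is at chr17:34305717-34305866 (plus strand), *H2-Aa* at chr17:34287824-34287973 (minus strand), *Igtp* at chr11:58199406-58199555 and *Irgm2* at chr11:58214827-58214976 (both plus strand).
Cxcl9: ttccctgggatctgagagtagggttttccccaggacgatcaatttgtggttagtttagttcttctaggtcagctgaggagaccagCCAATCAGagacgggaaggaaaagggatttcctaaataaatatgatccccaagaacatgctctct
H2-Eb1: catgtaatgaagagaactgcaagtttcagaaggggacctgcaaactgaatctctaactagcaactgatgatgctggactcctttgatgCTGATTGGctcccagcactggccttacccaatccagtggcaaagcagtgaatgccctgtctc
H2-Aa: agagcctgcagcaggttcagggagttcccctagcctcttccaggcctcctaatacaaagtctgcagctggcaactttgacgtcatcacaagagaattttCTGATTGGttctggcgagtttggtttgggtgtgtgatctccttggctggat
Gbp2b: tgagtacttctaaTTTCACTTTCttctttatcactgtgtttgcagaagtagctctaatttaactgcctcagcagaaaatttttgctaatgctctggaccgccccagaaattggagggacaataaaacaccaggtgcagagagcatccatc
Igtp: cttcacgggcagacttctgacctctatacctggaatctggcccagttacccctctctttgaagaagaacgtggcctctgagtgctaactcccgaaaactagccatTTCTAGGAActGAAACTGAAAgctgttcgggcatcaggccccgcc
Irgm2: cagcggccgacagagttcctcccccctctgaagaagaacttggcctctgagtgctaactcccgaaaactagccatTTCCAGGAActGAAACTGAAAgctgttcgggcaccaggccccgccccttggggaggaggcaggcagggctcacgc
*Gbp2b*, *Igtp* and *Irgm2* were all higher in BALB/c tumors, and the promoters of *Igtp* and *Irgm2*, which are neighbouring genes of one family, share most of their sequence. *H2-Aa*, *Igtp* and *Irgm2* were picked for printing after the search, and the promoters of *Ubd* and *AW112010*, which a rule on the size of the difference also chose, held none of the motifs.

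**Figure D2:**
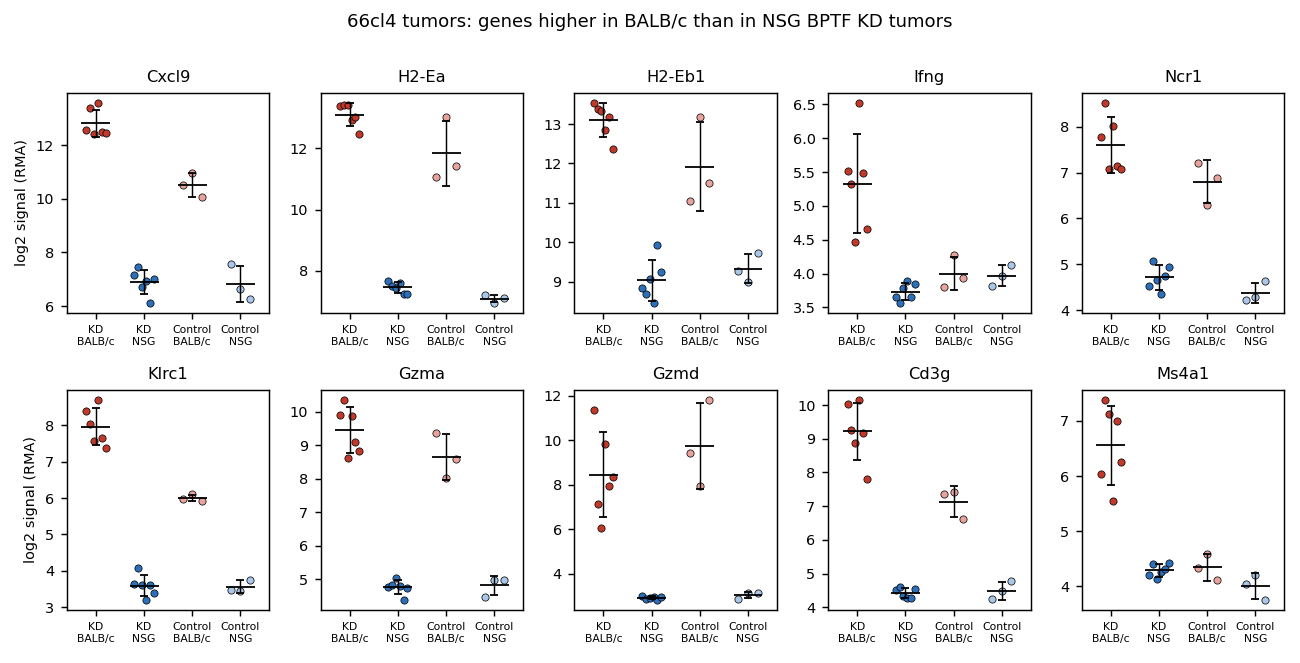
Log2 signal of 10 genes that were higher in BALB/c than in NSG BPTF KD 66cl4 tumors, with control 66cl4 tumors beside them. Points are tumors, lines are means and bars are 1 SD; BPTF KD tumors of the hosts do not overlap in any of the 10 genes, and Ifng is near 4 in control tumors of both hosts.

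MHC class II chains form the peptide-presenting surface molecules of dendritic cells, B cells and activated macrophages. Of 9 measured genes of this system, 8 were higher in BALB/c tumors, all without overlap, and 0 lower, with a median of 2.29. *H2-Ea*, the alpha chain of I-E, was at 12.48, 13.22 and 13.42 in BALB/c tumors and 7.22, 7.48 and 7.67 in NSG tumors, 50.6-fold apart (5.66 ± 0.15 SE, adjusted p = 2.75e-11). A second *H2-Ea* probe set differed by 9.78 and another one, dim in every tumor, by 0.18. NOD mice are known for an MHC haplotype that does not express the I-E alpha chain. The beta chain *H2-Eb1* was at 12.37, 13.25 and 13.52 in BALB/c and 8.47, 8.95 and 9.94 in NSG tumors (4.07 ± 0.24 SE, adjusted p = 8.93e-08). BALB/c replicate 6 was the lowest BALB/c tumor for both chains. The I-A chains *H2-Ab1* and *H2-Aa* differed by 2.33 and 2.05, the invariant chain *Cd74* by 2.68, and *H2-DMa*, which loads peptide, by 2.29. *Ciita*, the transactivator of this gene set, was at 6.51, 7.14 and 7.32 in BALB/c and 4.87, 5.43 and 5.71 in NSG tumors (1.70 ± 0.15 SE, adjusted p = 6.96e-06). *H2-Oa*, a modulator of loading found in B cells, was at 0.37 and not called. Adding the muscle level to the fit left 7 of the 9 genes called.

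For MHC class I, 11 of 14 measured genes were higher and 0 lower, with a median of 0.69. The larger differences were in loading and in the immunoproteasome. *Psmb9*, an immunoproteasome subunit, was at 10.75, 11.54 and 11.67 in BALB/c and 9.47, 9.60 and 9.72 in NSG tumors (1.73 ± 0.16 SE, adjusted p = 6.79e-06). The peptide transporter *Tap1* differed by 1.64 and its partner *Tap2* by 0.50, which was not called for *Tap2*. Chains themselves moved less, with *H2-K1* at 0.57, *B2m* at 0.38 and *H2-D1* at 0.14, which was not called. Chains and probes of this region differ in sequence between mouse strains, and probe binding to the 2 haplotypes was not tested. Adding the muscle level left 3 of the 14 called.

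NK cells and cytotoxic T cells kill with granule proteins and are steered by receptors of the Ly49 and NKG2 families. Of 27 measured genes of this group, 23 were higher in BALB/c tumors, 21 of them without overlap, and 1 was lower, with a median of 2.11. All 10 granule proteins were higher and did not overlap. *Gzma* was at 8.63, 9.49 and 10.35 in BALB/c and 4.40, 4.79 and 5.04 in NSG tumors (4.68 ± 0.25 SE, adjusted p = 4.14e-08). The highest *Gzma* was in BALB/c replicate 2, the tumor with the lowest muscle level. In that tumor *Gzmd* and *Gzmg* were at 7.14 and 6.96, below most other BALB/c tumors. A relation of granzymes to the muscle level was not tested. *Gzmb* differed by 3.93 and the pore former *Prf1* by 1.32. The call of *Prf1* was lost when probe sets for 1 transcript were taken first. It was also lost with the muscle level in the limma fit (adjusted p = 0.334).

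*Gzmd* and *Gzmg*, granzymes of the same cluster on chromosome 14 as *Gzmb*, spread far more among BALB/c tumors. *Gzmd* was at 6.08, 8.15 and 11.37 in BALB/c and 2.85, 2.95 and 3.01 in NSG tumors (5.52 ± 0.66 SE, adjusted p = 9.84e-05). BALB/c replicate 1 had the highest and replicate 3 the lowest value for *Gzmd*, *Gzmg* and *Gzmb*, and no BALB/c tumor reached the NSG range. In *Gzma* the same 6 tumors spanned 8.63 to 10.35 only. In control tumors the host difference was 6.69 for *Gzmd*, 6.18 for *Gzmg* and 3.57 for *Gzmb*, against 5.52, 4.64 and 3.93 in BPTF KD tumors, and none of these passed the test of KD against control differences. The calls of both were lost with the muscle level in the fit (adjusted p = 0.118 and 0.3).

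Among receptors, the inhibitory *Klrc1* (NKG2A) was at 7.39, 7.85 and 8.70 in BALB/c and 3.21, 3.61 and 4.07 in NSG tumors (4.37 ± 0.21 SE, adjusted p = 1.70e-08). *Ncr1*, the activating receptor NKp46 that marks mouse NK cells, was at 7.07, 7.46 and 8.52 in BALB/c and 4.35, 4.71 and 5.08 in NSG tumors (2.89 ± 0.23 SE, adjusted p = 2.75e-06). Replicates 2, 4 and 1 of the BALB/c tumors were the 3 highest for *Ncr1*. The ligand *Fasl* differed by 3.18 and *Ms4a4b*, of T and NK cells, by 4.52. *Klra8*, an activating Ly49 receptor, was the 1 gene of the list called lower, at 3.0, 3.11 and 3.36 in BALB/c and 3.39, 3.85 and 4.14 in NSG tumors (-0.65 ± 0.12 SE, adjusted p = 3.11e-03). It was dim in every tumor. *Klra7* differed by 0.49 on the probe set that stood for it and was not called. On its other probe set it was at 3.39 to 3.63 in BALB/c and 5.38 to 8.83 in NSG tumors (-3.42, adjusted p = 1.02e-04 over all probe sets), so no direction is given to *Klra7*; both probe sets can bind related transcripts. The Ly49 genes vary in number between mouse strains. In the fit with the muscle level, 12 of the 27 genes were called higher.

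T cell genes were led by the receptor complex. Of 22 measured, 14 were higher in BALB/c tumors, 13 without overlap, and 0 were lower, with a median of 0.84. *Cd3g*, a chain of the T cell receptor complex, was at 7.82, 9.22 and 10.15 in BALB/c and 4.28, 4.43 and 4.59 in NSG tumors (4.79 ± 0.30 SE, adjusted p = 1.74e-07). Replicates 4 and 1 were highest and replicate 6 lowest. *Cd3d* differed by 2.35, the adhesion receptor *Cd2* by 2.31, and *Gimap7*, a lymphocyte GTPase, by 4.05. The coreceptor *Cd8b1* was at 4.84, 5.59 and 6.45 in BALB/c and 3.92, 4.11 and 4.47 in NSG tumors (1.44 ± 0.26 SE, adjusted p = 2.44e-03). *Cd4* was at 6.43, 6.59 and 6.75 in BALB/c and 6.31, 6.57 and 6.67 in NSG tumors, with overlap (0.03 ± 0.08 SE, adjusted p = 0.87), and its sign changed with the scaling. The costimulatory receptor *Cd27* differed by 1.66. Of the 22 genes, 9 were called with the muscle level in the fit.

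For B cells and plasma cells, 5 of 15 measured genes were higher and 1 lower, with a median of 0.09, beside 6.38% and 4.67% of all genes. *Ms4a1* (CD20) was at 5.54, 6.63 and 7.38 in BALB/c and 4.13, 4.29 and 4.43 in NSG tumors (2.26 ± 0.26 SE, adjusted p = 6.10e-05). Its order among BALB/c tumors was not that of *Cd3g*, as replicate 4, highest for *Cd3g*, was lowest for *Ms4a1*. *Jchain*, which joins secreted IgM and IgA, was at 5.83, 7.63 and 8.52 in BALB/c and 3.66, 3.79 and 3.91 in NSG tumors (3.68 ± 0.35 SE, adjusted p = 1.32e-05). The heavy chain *Ighm* differed by 0.97 on its brightest probe set, with overlap, and by -0.12 to 0.99 over its 11 probe sets. The defining B cell genes *Cd79a*, *Cd79b* and *Pax5* were at 0.13, 0.03 and -0.18 and were not called. *Tnfrsf17* (BCMA) was lower in BALB/c tumors, by -0.73. It was at 4.43 to 5.35 in BALB/c and 5.15 to 6.05 in NSG tumors, with overlap, and dim in most tumors. The muscle level in the fit left 3 of the 15 called higher and 0 lower.

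**Figure D3:**
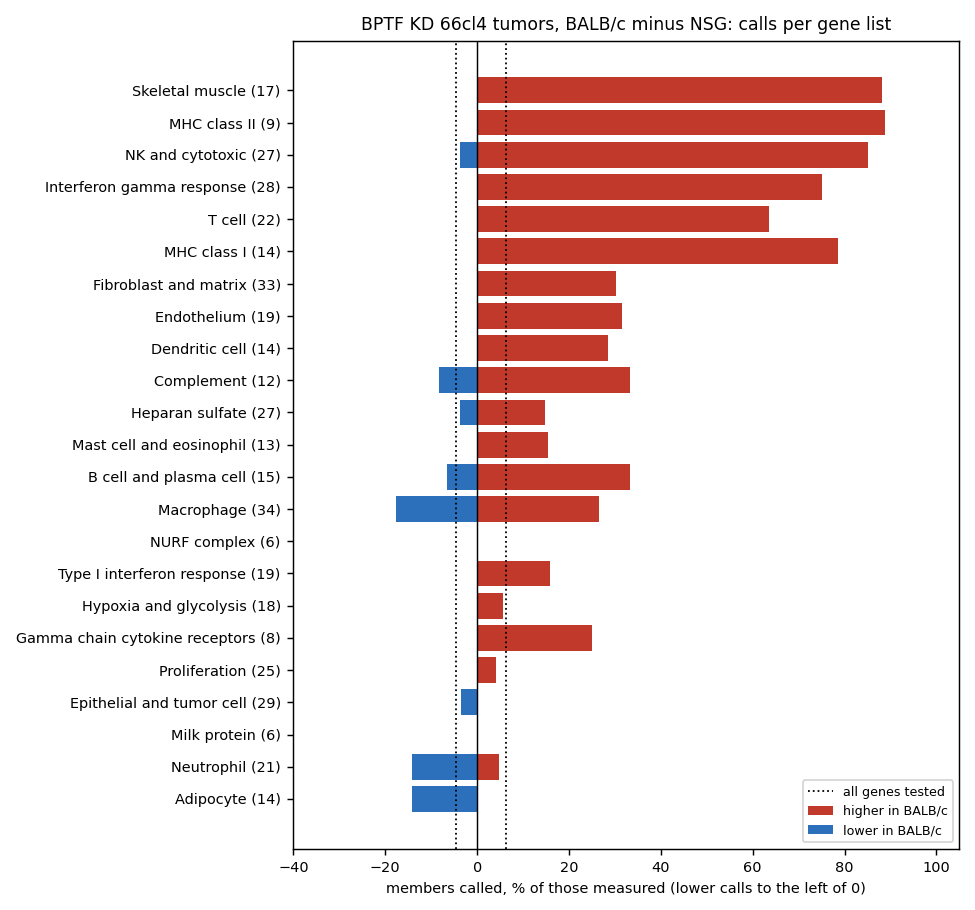
Share of measured members of each gene list called higher (right of 0) or lower (left of 0) in BALB/c than in NSG BPTF KD 66cl4 tumors, in % of the members measured, the number of which is in brackets. Dotted lines are the shares over all genes tested, 6.38% and 4.67%; lists are ordered by their median difference, with skeletal muscle at the top.

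Macrophages are present in both hosts, and their genes moved both ways. Of 34 measured, 9 were higher and 6 lower in BALB/c tumors, with a median of 0.09, beside 6.38% and 4.67% of all genes. Broad markers such as *Cd68*, *Adgre1* and *Lyz2* were at 0.08, -0.12 and 0.06, none of them called. *Csf1r* was at 0.69 and just missed the threshold (adjusted p = 0.0574). Its other probe sets differed by 0.65 and 0.53 (adjusted p = 0.0469 and 0.0372 by limma over all probe sets). *Csf1r* was also called with array weights, an RNA integrity covariate, a block for the replicate number, or without NSG replicate 5. *Fcgr4*, an activating receptor for IgG, was at 10.98, 11.87 and 12.51 in BALB/c and 8.96, 9.23 and 9.83 in NSG tumors (2.58 ± 0.22 SE, adjusted p = 4.97e-06). *Apoe*, a lipid carrier, was at 12.84, 13.26 and 13.51 in BALB/c and 10.80, 11.39 and 12.33 in NSG tumors (1.82 ± 0.22 SE, adjusted p = 1.39e-04). The chemokine *Ccl8* differed by 1.32 without overlap and *Arg1* by 1.33, with 5 of 6 BALB/c tumors above all NSG tumors.

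The macrophage genes that were lower in BALB/c tumors included scavenger receptors. *Lyve1*, of tissue-resident macrophages and of lymphatic endothelium, was at 8.92, 9.78 and 10.66 in BALB/c and 11.22, 11.52 and 11.70 in NSG tumors (-1.77 ± 0.22 SE, adjusted p = 1.61e-04). *Marco* was at 4.85, 5.08 and 5.23 in BALB/c and 5.60, 6.38 and 6.89 in NSG tumors (-1.25 ± 0.17 SE, adjusted p = 2.91e-04). The chitinase-like *Chil3* differed by -1.15. In control tumors the host difference of *Lyve1* was -0.19, and the test of KD against control differences did not pass (adjusted p = 0.263). *Marco* kept its call with the muscle level in the fit (adjusted p = 0.0309) and *Lyve1* did not (0.419); 5 macrophage genes were then called higher and 1 lower.

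Of 14 measured dendritic cell genes, 4 were higher and 0 lower, with a median of 0.31, beside 6.38% and 4.67% of all genes. These were the integrin *Itgax* (CD11c) at 0.57, the transcription factor *Batf3* at 0.66, and the chemokines *Ccl17* and *Ccl22* at 0.67 and 0.31. *Flt3*, *Zbtb46* and *Xcr1*, which define conventional dendritic cells, were at 0.03, -0.02 and -0.04, and were not called. In the fit with the muscle level, 1 dendritic cell gene was called. Neutrophil genes had 1 of 21 higher and 3 lower, with a median of -0.15. *S100a9*, a calcium-binding protein of neutrophils, was at 8.53, 10.08 and 10.58 in BALB/c and 10.30, 10.89 and 11.92 in NSG tumors (-1.16 ± 0.32 SE, adjusted p = 0.0319). The neutrophil chemokines *Cxcl2* and *Cxcl5* differed by -1.07 and -0.81, and *Il1b*, an inflammatory cytokine, by 0.94. All 4 had tumors that overlapped between hosts, and the calls of *S100a9* and *Cxcl5* were lost when a single tumor was left out. Of 13 mast cell and eosinophil genes, only *Kit* and *Tpsab1* were called by limma, by 0.45 and 1.01, and both calls were lost in the same way. The muscle level left 0 neutrophil, mast cell and eosinophil genes called, and RNA integrity as a covariate gave 0 neutrophil genes higher and 8 lower.

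Genes of the type I interferon response contrasted with those of interferon gamma. Of 19 measured, 3 were higher and 0 lower, with a median of 0.07, beside 6.38% and 4.67% of all genes. *Irf9*, *Stat2* and *Oas2* differed by 0.51, 0.42 and 0.36, and each call was lost when a single tumor was left out (adjusted p up to 0.0776). The muscle level in the fit left 1 of the 19 called. *Ifit1*, *Mx1* and *Rsad2*, which respond strongly to type I interferon, were at -0.27, -0.03 and -0.28 and were not called. *Ifi44l*, which the list did not hold, stood apart with 9.98, 10.31 and 10.76 in BALB/c and 4.72, 5.07 and 5.39 in NSG tumors (5.30 ± 0.15 SE, adjusted p = 3.15e-11). The difference of *Ifi44l* was 4.72 in control 66cl4 tumors and 6.17 in BPTF KD 67NR tumors.

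Among the 12 largest differences toward NSG without overlap were genes of metabolism, membrane traffic and adhesion. *Calml4*, a calmodulin-like gene, was at 6.44, 6.80 and 7.24 in BALB/c and 8.86, 9.29 and 9.57 in NSG tumors (-2.44 ± 0.16 SE, adjusted p = 2.01e-07). The tetraspanin *Tspan32*, of blood cells, was at 5.78, 6.40 and 6.84 in BALB/c and 8.27, 8.82 and 9.15 in NSG tumors (-2.40 ± 0.18 SE, adjusted p = 1.54e-06). *Npl*, an enzyme that breaks down sialic acid, was at 10.27, 10.96 and 11.53 in BALB/c and 12.92, 13.21 and 13.48 in NSG tumors (-2.29 ± 0.18 SE, adjusted p = 1.59e-06). These 3 genes had like differences in control tumors, -2.35, -2.87 and -2.10. *Trim34a* differed by -2.07 on its brightest probe set and by 0.64 (adjusted p = 2.59e-03) on its other one, so no direction is given to the gene.

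Beside *Lyve1*, the rest of the 12 were smaller. *Rab7b*, a GTPase of late endosomes, was at 8.43, 8.67 and 8.97 in BALB/c and 10.09, 10.18 and 10.40 in NSG tumors (-1.55 ± 0.10 SE, adjusted p = 1.56e-07). *Dio2*, which activates thyroid hormone, was at 5.94, 7.45 and 7.79 in BALB/c and 8.45, 8.89 and 9.35 in NSG tumors (-1.74 ± 0.26 SE, adjusted p = 7.28e-04). *Acss1*, the mitochondrial acetyl-CoA synthetase, differed by -1.63, the adhesion molecule *Nrcam* by -1.38, the channel *Pacc1* by -1.35 and the Ly49 family member *Klra17* by -1.42. *BC018473* differed by -1.34 on its brightest probe set and by -0.01 on its other one. The other probe sets of *Acss1*, dim in every tumor, gave -0.01 and -0.345 and were not called. With the muscle level in the fit, *Calml4*, *Tspan32*, *Npl*, *Rab7b* and *BC018473* kept their calls and *Dio2*, *Acss1*, *Nrcam*, *Pacc1* and *Klra17* lost theirs. The differences of these last genes were then -1.41, -1.35, -1.42, -0.84 and -0.63, in the same order.

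**Figure D4:**
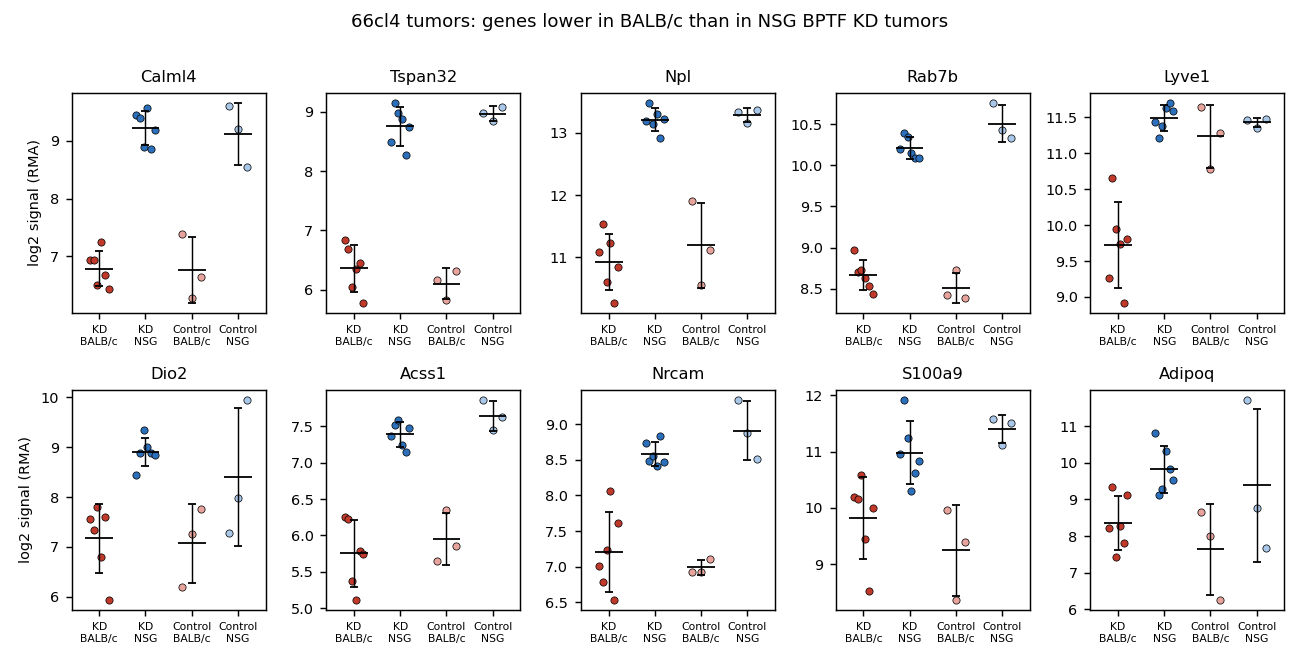
Log2 signal of 10 genes that were lower in BALB/c than in NSG BPTF KD 66cl4 tumors, with control 66cl4 tumors beside them. Points are tumors, lines are means and bars are 1 SD; BPTF KD tumors of the hosts overlap only for S100a9 and Adipoq, and for Lyve1 the control tumors of BALB/c mice average 11.24, above the highest BPTF KD tumor of that host at 10.66.

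Stromal genes differed modestly. Of 33 fibroblast and matrix genes, 10 were higher in BALB/c tumors and 0 lower, with a median of 0.51 and only 3 without overlap. Over all genes, the shares called were 6.38% higher and 4.67% lower, or 11.1% in either direction. *Col1a1*, the main fibrillar collagen, was at 7.48, 8.11 and 8.85 in BALB/c and 6.32, 6.95 and 7.68 in NSG tumors (1.15 ± 0.24 SE, adjusted p = 6.38e-03). Another *Col1a1* probe set differed by 0.25 and was not called. The proteoglycan *Dcn* differed by 1.07 and the surface protein *Thy1*, shared with T cells, by 1.32. Of 19 endothelial genes, 6 were higher, among them *Cdh5* by 0.87 and *Esam* by 0.54, with a median of 0.34. Of 14 adipocyte genes, 0 were higher and 2 lower, *Adipoq* by -1.46 and *Cd36* by -0.84. Both of these calls were lost in a fit of all 36 tumors, and that of *Cd36* also when a single tumor was left out. Whether the adipocyte list differs from the share over all genes was not tested. With the muscle level in the fit, 0 genes of these 3 lists were called, and the list medians were 0.38, 0.26 and -0.21. The part of the muscle level in these differences was not tested beyond that fit.

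In each of 3 lists, of epithelial and mesenchymal cells and of growth, 1 gene was called, beside 11.1% of all genes. Whether these lists differ from that share was not tested. Of 29 epithelial and mesenchymal genes, only *Cd24a* was called, lower in BALB/c tumors by -0.67, and the list's median was -0.03. Of 25 proliferation genes, only the cyclin *Ccne1* was called, by 0.39, and *Mki67* was at -0.14. Of 18 hypoxia and glycolysis genes, only hexokinase *Hk2* was called, by 0.90. These counts depended on the fit: with RNA integrity as a covariate, 5 proliferation genes were higher and 1 lower and 6 hypoxia genes were higher, and without NSG replicate 5, 2 proliferation and 4 hypoxia genes were higher. Adding the muscle level left 0 genes called in these 3 lists. None of the 6 milk protein genes and none of the 6 NURF genes passed, and their median differences were -0.10 and 0.09.

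Heparan sulfate on the cell surface is a co-ligand of NK receptors such as NCR1. Of 27 genes of its synthesis and core proteins, 4 were higher and 1 lower, with a median of 0.10, beside 11.1% of all genes called in either direction. The muscle level in the fit left 0 of the 27 called. The higher ones were the polymerase subunit *Ext2* by 0.51, *Extl3* by 0.55, the sulfotransferase *Hs6st2* by 0.85 and the core protein *Sdc3* by 0.40. Other, dimmer probe sets gave 0.025 for *Extl3* and 0.14 and 0.23 for *Hs6st2*, none of them called. *Ndst3*, a sulfotransferase, was at 4.27, 4.61 and 4.80 in BALB/c and 4.81, 5.08 and 5.50 in NSG tumors (-0.56 ± 0.12 SE, adjusted p = 7.63e-03), dim in both. *Hs6st1* was at 0.15 and was not called. Complement had 4 of 12 genes higher and 1 lower, or 1 and 0 with the muscle level in the fit. *C6*, of the membrane attack complex, differed by 1.25, *C1qc*, *C1ra* and *C2* of the early pathway by 0.44, 0.50 and 0.42, and the receptor *C5ar1* by -0.57. *Hc* (C5), of which NOD mice are known to make no functional protein, differed by 0.24 and was not called.

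Of the genes mutated in NSG mice, *Prkdc* was measured, at 7.35, 7.68 and 8.0 in BALB/c and 7.37, 7.79 and 7.97 in NSG tumors, with full overlap (-0.03 ± 0.14 SE, adjusted p = 0.916). Its transcript comes from host and tumor cells alike, and *Il2rg* was not analysed here. Of 8 receptors and kinases that work with the common gamma chain, *Il2rb* and *Il15ra*, subunits of the interleukin 15 receptor, were higher, by 1.18 and 0.47. The share called higher over all genes was 6.38%. Another *Il15ra* probe set differed by 0.14 and was not called. The call of *Il15ra* was lost in a fit of all 36 tumors and with an RNA integrity covariate. With the muscle level in the fit, 1 of the 8 was called.

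The host difference was set beside that of control tumors to see whether it goes with the knockdown. Control 66cl4 tumors had 156 genes higher and 158 lower (1.26% and 1.27%, 2.53% in all), from 3 against 3 tumors. This total of 314 was unstable: it lay between 27 (without NSG replicate 2) and 2370 (without BALB/c replicate 1) when 1 tumor was left out, and was 4922 with array weights. At least 2-fold differences were called for 101 higher and 68 lower genes (0.815% and 0.549%). Over all genes, 70.2% had the same direction in BPTF KD and control tumors. Of the 210 genes at least 2-fold higher in BPTF KD, 204 had the same direction in controls, 125 were at least 2-fold there and 78 were called. Their median difference was 1.75 in BPTF KD and 1.14 in control tumors. Of the 49 at least 2-fold lower, 47 had the same direction, and the medians were -1.25 in BPTF KD and -1.36 in controls. These genes were chosen in the BPTF KD tumors, which favors the larger value there.

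The test of the difference between KD and control host effects called 0 genes with limma, where 1476 had an unadjusted p under 0.05 against 619.7 given by chance, and the smallest adjusted p was 0.188, for *Klrc1*. With array weights the same test called 771 genes, so that the count depends on this setting. *Klrc1* differed between hosts by 4.37 in BPTF KD and 2.44 in control tumors, *Cxcl9* by 5.90 and 3.69, *Cd3g* by 4.79 and 2.64, *Iigp1* by 3.69 and 1.81, and *Ms4a1* by 2.26 and 0.34. The granzymes *Gzmd* and *Gzmg* ran the other way. Medians of the lists were 2.11 and 1.53 for NK and cytotoxic genes, 1.42 and 0.60 for the interferon gamma response, 2.29 and 1.09 for MHC class II, and 0.84 and 0.53 for T cells, in BPTF KD and in control tumors. With 3 control tumors a host and 0 genes called, none of these pairs is shown to differ.

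**Figure D5:**
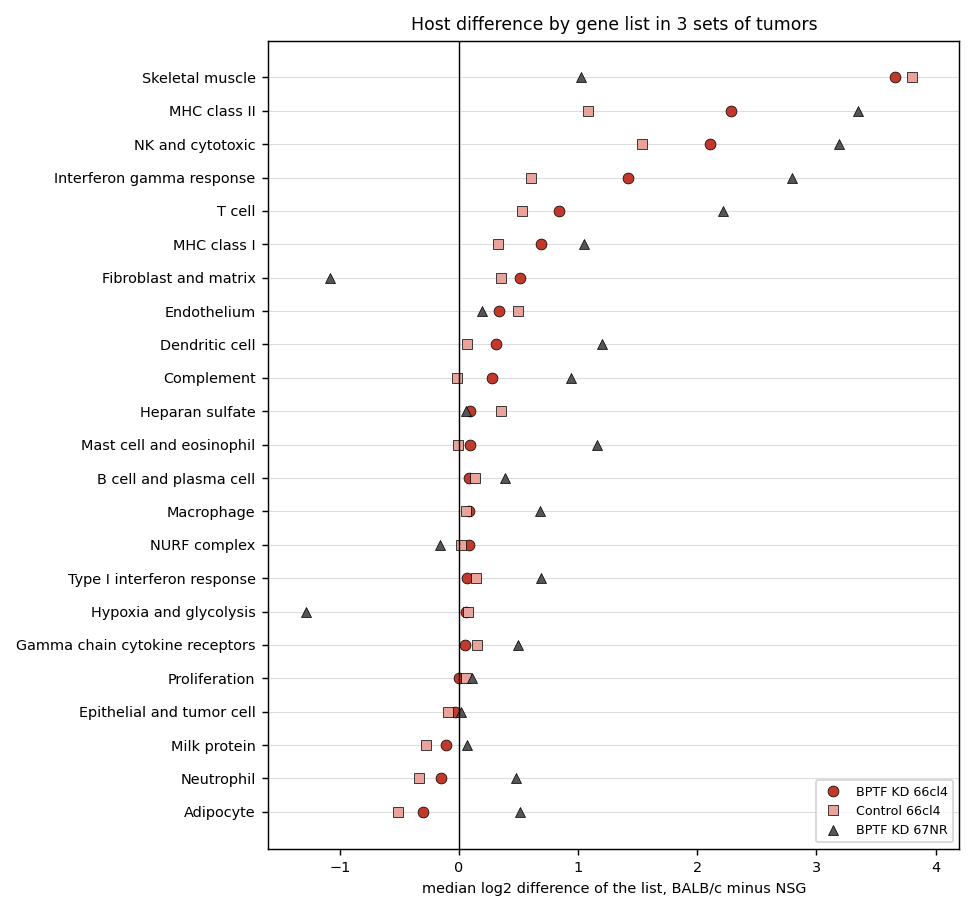
Median log2 difference between BALB/c and NSG tumors of each gene list, in BPTF KD 66cl4, control 66cl4 and BPTF KD 67NR tumors. Each symbol is 1 median over the measured members; immune lists lie highest in 67NR, such as 2.80 for the interferon gamma response against 1.42 in BPTF KD 66cl4, while fibroblast and hypoxia lists lie below 0 in 67NR only.

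67NR tumors with the same knockdown, taken at day 21, showed a larger host difference, with 1003 genes higher and 954 lower (8.09% and 7.7%, 15.8% in all), of which 505 and 328 by at least 2-fold (4.07% and 2.65%). A test of the difference between the lines called 1116 genes (9%), for 588 of which the value was higher in 66cl4 and for 528 lower (4.74% and 4.26%), and 284 and 253 of them by at least 2-fold (2.29% and 2.04%). The day of harvest and the cell line cannot be told apart. Of the 210 genes at least 2-fold higher in 66cl4, 193 had the same direction in 67NR, with a median of 1.76. Of the 49 lower, 33 had the same direction, with a median of -0.46. The share of all genes with the same direction in both lines was not counted. Over all genes, the host differences of the lines had a Pearson correlation of 0.514. *Ifng* differed between hosts by 1.60 in 66cl4 and 4.35 in 67NR (adjusted p of the difference = 9.16e-03), *Gzma* by 4.68 and 6.59 (adjusted p = 0.0192), and *Cd274* by 1.23 and 3.56 (adjusted p = 0.0109). Fibroblast and matrix genes went the other way. *Dcn* differed by 1.07 in 66cl4 and by -2.15 in 67NR (adjusted p = 6.53e-03). So did *Arg1* of the macrophage list, with 1.33 in 66cl4 and -1.96 in 67NR (adjusted p = 0.0485). Of the 33 fibroblast and matrix genes, 15 had a higher host difference in 66cl4 than in 67NR and 0 a lower one, with list medians of 0.51 and -1.08. Of the 14 adipocyte genes, 0 had a higher and 3 a lower host difference in 66cl4, with list medians of -0.30 and 0.51. The muscle list had a median of 3.66 in 66cl4 and 1.03 in 67NR, where 0 members were called.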

How the data were processed

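Total RNA from frozen 66cl4 and 67NR tumors, freed of necrotic tissue by the authors, was labelled from 500 ng and hybridized to Affymetrix mouse arrays. The authors deposited log2 signals that the submitters' processing notes credit to RMA (version not given in the sources used here); they were used as deposited. The platform annotation gave 1 symbol to 20393 of 22690 probe sets, more than 1 to 691 and none to 1606, and the Entrez IDs of 20364 were found in RefSeq, which changed 0 symbols. The brightest probe set stood for each of 12394 genes. For 1189 of these its name ends in _x_at or _s_at, which marks possible binding to other transcripts. RMA pulls weak and saturated signals together, which makes large differences too small, and the number of arrays limits precision.

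Hosts were compared with limma 3.58.1 in R 4.3.3 on the 12 BPTF KD 66cl4 tumors, with Benjamini-Hochberg adjustment and thresholds of 0.05 and, for large differences, 2-fold. Interactions were fitted over 18 tumors of 66cl4 and 24 BPTF KD tumors. For *Bptf* and the array measures, a two-sided exact permutation test used all 924 splits. The procedure was tested on simulated data. Alternatives were array medians, quantile normalization, a filter on the dimmest 25%, other probe sets, a fit of all 36 tumors, array weights, a trended robust prior, an RNA integrity covariate, a block for the replicate number, leaving out each tumor and, added after seeing the data, a muscle covariate.

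Named genes were the 12 largest rises and falls without overlap, up to 5 called and 1 not called member of each list, and *Bptf*, *Il2rg*, *Prkdc*, *Ifng*, *Ncr1*, *H2-Ea*, *Hc*, *Hs6st1*, *Ndst3* and *Ednrb*, with the 5 smallest p in each direction of each interaction. Genes outside this rule (such as *Gbp2b*, *Igtp*, *Cd4*, *Cd8b1*, *Prf1* and list members given with a difference only) were chosen after their values were seen. Members and lists were chosen with earlier results of these data known. Tables and figures were made with matplotlib 3.10.9, scipy 1.17.1 and pandas 2.3.3 under Python 3.11.15, with numpy 2.4.6. The labels do not say how tumors with the same replicate number relate, or whether arrays were run together.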

Additional observations from a re-analysis of the deposited data

Results flagged for a closer look

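In 12 of 286 groups of 6 tumors, 1 tumor lay far from the other 5 by Dixon's ratio, where chance gives about 1 in 20. BALB/c replicate 6 was low for *Ciita* (6.51) and for the MHC class II list (9.89). BALB/c replicate 2 was high for *Oas2* (7.68) and the epithelial and tumor cell list (7.29), replicate 5 was low for the neutrophil list (7.23), and replicate 1 for the NURF list (9.66). Among NSG tumors, replicate 4 was high for *Ckm* (7.89), *Acta1* (8.35) and the skeletal muscle list (7.11). NSG replicate 5 was low for *Ms4a4b* (4.26) and high for *Cd74* (9.03), and replicate 6 was low for the NURF list (9.69).

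Host differences were compared between BPTF KD 66cl4 tumors (day 28) and BPTF KD 67NR tumors (day 21) by limma's interaction test. Of the 110 genes followed through all settings, 31 differed, beside 9% of all genes. These 110 were chosen in part by their host difference in 66cl4 or after their values were seen, so the shares are not comparable. Line and day cannot be told apart. Values below are the 66cl4 minus the 67NR host difference. It was above 0 for 3 genes of stroma and macrophages, *Col1a1* (2.21), *Dcn* (3.22) and *Arg1* (3.29). It was below 0 for the others. Lymphocyte genes were *Ifng* (-2.74), *Ms4a4b* (-2.27), *Gzma* (-1.91), *Il2rb* (-1.87), *Cd27* (-1.76), *Prf1* (-1.62), *Cd2* (-1.57), *Il15ra* (-1.03), *Cd6* (-0.96) and *Klra8* (-0.56). Interferon and antigen presentation genes were *Cd274* (-2.33), *Iigp1* (-1.85), *Gbp2b* (-1.82) and *H2-Oa* (-1.64). Myeloid genes were *Tpsab1* (-3.40), *Ccl8* (-2.19), *Itgax* (-2.12), *Fcgr4* (-1.58), *Marco* (-1.58), *Batf3* (-1.34), *Ccl22* (-1.26), *Cxcl5* (-1.23) and *C1qc* (-0.76). The rest were *Cd24a* (-2.01), *Dio2* (-1.97), *Cd36* (-1.93), *Acss1* (-1.36) and *Rab7b* (-1.10). For *Marco*, *Dio2*, *Cd36*, *Cd24a*, *Cxcl5*, *Col1a1*, *Dcn* and *Arg1* the host difference had opposite signs in the lines.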

How the results depend on the processing

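The 1370 calls of the BPTF KD comparison became 2313 over all probe sets, 579 in a fit of all 36 tumors, 2295 with array weights, 2297 with an RNA integrity covariate and 137 with the muscle covariate, which was chosen after seeing the data. Higher calls (791) were 376 in the fit of all tumors and 122 with the muscle covariate. Lower calls (579) were 1142 over all probe sets, 203 in the fit of all tumors, 1111 with array weights, 1121 with the RNA covariate and 15 with the muscle covariate. The 2-fold counts (210 and 49) were 109 and 10 with the muscle covariate, and 123 lower with the RNA covariate. Leaving out 1 tumor gave 993 (without NSG replicate 2) to 2408 calls (without NSG replicate 5), 615 to 1242 of them higher and 377 to 1166 lower.

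Control tumors had 314 calls, which were 818 over all probe sets, 4922 with array weights, 1375 with the RNA covariate, 2268 with the replicate block, and 27 (without NSG replicate 2) to 2370 (without BALB/c replicate 1) with 1 tumor left out. KD against control gave 0 calls, 1 over all probe sets, 771 with array weights and 0 to 6 with 1 tumor left out. In 67NR, 1957 calls were 2952 over all probe sets, 3908 in the fit of all tumors, 4235 with array weights and 3222 with the RNA covariate. The lines differed in 1116 genes, 2690 with array weights and 1720 with the RNA covariate. After the group mean of each gene was subtracted, same-numbered tumors of the hosts correlated at -0.184 to 0.205. The numbers were therefore not taken as pairs, and a block for the number gave 722 higher and 500 lower calls.

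Of 110 named genes, 100 were called, 62 of them under every setting other than the muscle covariate and 47 with the muscle covariate. Leaving out single tumors ended 13 calls: *Cd36*, *S100a9*, *Stat2*, *Cxcl5*, *Irf9*, *Oas2*, *Batf3*, *Ccl22*, *Kit*, *Tpsab1*, *C1ra*, *C2* and *Ext2*. Signs turned for *Trim34a* (0.64) and *Ighm* (-0.0483) with probe sets for 1 transcript first, for *Casq1* (-0.70) and the muscle list's median (-0.11) with the muscle covariate, and near 0 for the Cd4 log2 difference (-0.0142 with array medians subtracted, -0.0058 with quantile normalization, and -0.017 to 0.0553 without single tumors) and *Prkdc* (-0.10 to 0.0317). *Bptf* on 1 probe set was -0.0427 to 0.017 without single tumors, and on another 0.247 to 0.443, the highest without NSG replicate 5 (exact permutation p = 0.00433).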
